A study of Mus musculus with 18 samples.

Results

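Mouse embryonic stem cells (ESCs) deficient in Oct1, labelled Oct1_cKO and called cKO below, were compared before differentiation (day 0) and after 2 days of differentiation with retinoic acid (day 2). The comparison used all libraries whose source labels read KO-0 and KO-2: 3 at day 0 and 3 at day 2, so 6 of the 18 libraries of the series. The other 12 libraries were 3 of the same cKO cells at day 6 and 9 of parental ESCs, 3 each at days 0, 2 and 6. Differentiating cells of both genotypes were grown on gelatin in supplemented DMEM that held 1.5 ug/ml retinoic acid. The labels do not give the strain, the number of clones, the way Oct1 was removed or the medium of the day 0 cells, and nothing in them tells whether libraries of one group are separate cultures. P-values therefore reflect library-to-library spread alone, and that spread may be technical. The day and the retinoic acid treatment went together, so their parts cannot be told apart.

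Retinoic acid, made from vitamin A, binds nuclear receptors of the RAR and RXR families that sit on DNA and switch target genes on, among them the enzymes that break retinoic acid down and the 3′ genes of the Hox clusters. In ESCs it shuts down the pluripotency network and starts differentiation. Oct1 is the product of Pou2f1, a widely expressed POU-domain factor that binds the octamer DNA motif and is related to the pluripotency factor Oct4. The title of the series names mesoderm and Smads, which carry nodal, TGF-beta and BMP signals into the nucleus, and genes of those groups are described below.

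The 6 libraries held 13694126 to 17458382 counts. Levels are given as CPM, the counts of a gene relative to all counts of its library, scaled with the library's TMM factor. The cKO day 0 replicates 1 and 2 were close to each other (chi-square per degree of freedom 1.22 over 16201 genes), whereas replicate 3 stood apart from both (10.8 and 10.4). Ribosomal protein genes took 7.38% of the counts in that library against 5.94% and 6.03% in the others. The cKO changes of named genes that gained or lost a call without it are given where those genes are described.

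Pou2f1 (chr1:165865154-166002678, minus strand, GRCm38) was counted in every cKO library. Its level was 87.2, 88.2 and 62.4 CPM at day 0 and 59.5, 60.8 and 58.8 CPM at day 2, against means of 129 and 103 CPM in parental cells. The groups did not overlap, but day 0 replicate 3 lay next to the day 2 libraries. The fitted log2 change was -0.40 ± 0.11 (SE, adjusted p = 0.00235). Without scaling factors it was -0.24 with an adjusted p of 0.0635. Counts are summed over the whole gene, and the deleted part is not named in the labels, so these reads do not show how much functional transcript was left. The parental change was -0.32. The difference between the 2 changes did not pass the test (-0.08 ± 0.14, adjusted p = 0.66), although without day 0 replicate 3 it was -0.24 with an adjusted p of 0.00533.

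The 4 marker genes were given with this comparison, so their values describe it and do not test it. Each of them separated the cKO day 0 libraries from the day 2 libraries. Cyp26a1 (chr19:37697798-37701536), the cytochrome that breaks down retinoic acid, stood at 0.451, 0.392 and 0.376 CPM at day 0 and at 216, 221 and 224 CPM at day 2. Car4 (chr11:84957786-84966044), a membrane-bound carbonic anhydrase, stood at 0.827, 0.706 and 0.565 CPM at day 0 and at 217, 227 and 201 CPM at day 2. Both went from under 1 CPM to over 200 CPM with no overlap, a 542-fold rise of the mean for Cyp26a1 and a 308-fold rise for Car4. Nanog (chr6:122707489-122714633), a transcription factor of the pluripotency network, went from 1050, 1090 and 1050 CPM to 29.7, 25.8 and 30.9 CPM. Tdh (chr14:63492347-63509092), the threonine dehydrogenase that mouse ESCs use to feed one-carbon metabolism, went from 605, 599 and 674 CPM to 4.69, 5.31 and 5.21 CPM. Nanog was 37.1-fold lower and Tdh 123-fold lower at day 2, again with no overlap. Adjusted p ran from 8.96e-42 for Tdh to 8.09e-39 for Cyp26a1 and Car4.

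**Figure D1:**
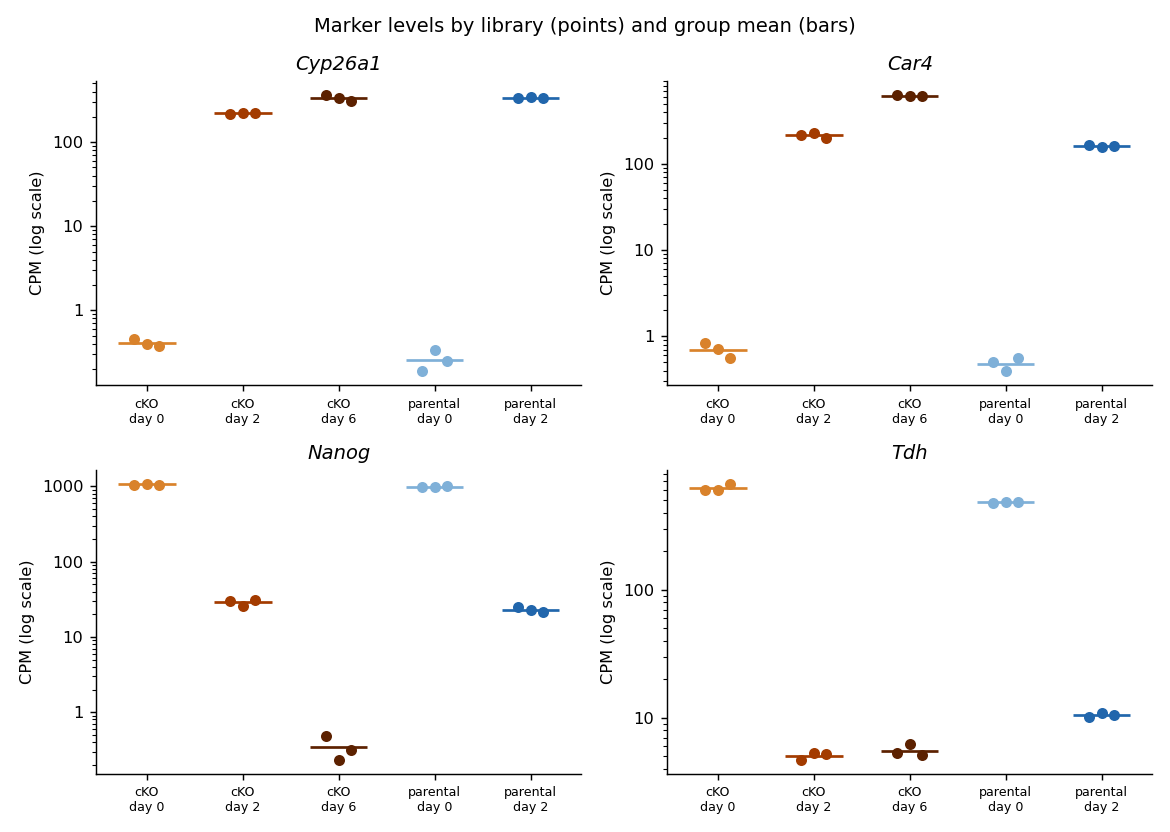
CPM (log scale) of Cyp26a1, Car4, Nanog and Tdh by library (points) with group means (bars), for cKO cells at days 0, 2 and 6 and parental cells at days 0 and 2. The 3 cKO day 2 libraries lie between 201 and 227 CPM for Cyp26a1 and Car4 and at or below 30.9 CPM for Nanog and Tdh, apart from all day 0 libraries.

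Set against the parental response, the markers differed in degree. The rise of Cyp26a1 was smaller in cKO cells (log2 change 9.06 ± 0.32 against 10.30), a difference of -1.24 ± 0.48 (adjusted p = 0.0336) that rests on few counts at day 0. Its adjusted p was between 0.0571 and 0.0971 when any one of the 3 cKO day 0 libraries or parental day 0 replicate 1 or 3 was left out. The fall of Tdh was deeper in cKO cells by -1.43 ± 0.11 (adjusted p = 4.41e-14), leaving 5.07 CPM on average against 10.5 CPM in parental cells. For Car4 the difference of -0.10 ± 0.36 did not pass the test (adjusted p = 0.857). For Nanog the difference of 0.21 ± 0.09 (adjusted p = 0.0358) became 0.04 with an adjusted p of 0.76 without scaling factors, and it also lost its call with DESeq2 (0.14, adjusted p = 0.15) and when 1 of 8 single libraries was left out.

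Most of the transcriptome moved. Of 18352 genes tested, 14039 passed an adjusted p of 0.05 and are called here (76.5%): 7525 higher at day 2 (41%) and 6514 lower (35.5%). A change of at least 2-fold was reached by 4394 of the higher and 2901 of the lower genes, and at least 8-fold by 878 and 471. Because so many genes were called, the gene lists below are to be read against these shares and against the median log2 change of all genes, 0.08. A lack of overlap between the cKO days was also usual, in 13421 of the 14039 called genes. The counts given for a list leave out members with too few counts to be tested and those that no row of the table used here was matched to. The change differed between genotypes, by the genotype by day interaction, in 5526 genes above the parental change (30.1%) and 4937 below it (26.9%). Without scaling factors 39.3% in place of 52.8% of the called differences lay above the parental change, and the median of all genes moved from 0.08 to 0.24 in cKO and to 0.42 in parental cells. A gene is said to lie above or below the parental change only where this difference was called.

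**Figure D2:**
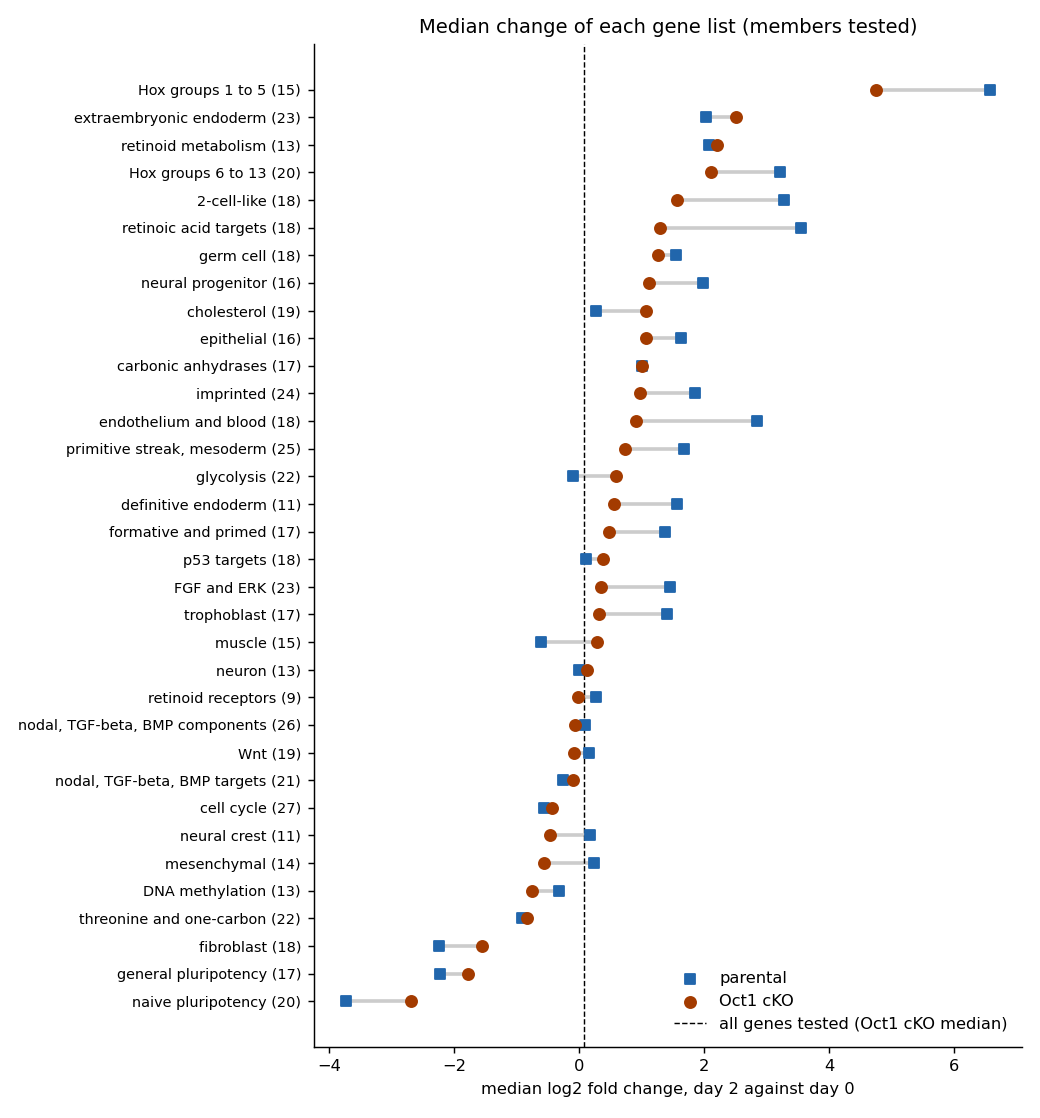
Median log2 change from day 0 to day 2 of each gene list in cKO (circles) and parental cells (squares), with the number of members tested in parentheses. Hox genes of groups 1 to 5 lie highest in cKO at 4.75 and naive pluripotency genes lowest at -2.69, and the dashed line marks the median of all genes tested in cKO, 0.08.

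Genes of retinoid metabolism mostly rose. Of 16 retinoid metabolism genes 13 had enough counts to be tested, and 9 of these were higher and 2 lower, with a median of 2.21. Rdh10 (-0.18) and Aldh1a1 (0.89) did not pass. Stra6, the membrane receptor that takes up retinol, went from 0.451, 0.627 and 0.69 CPM to 46.2, 39.7 and 44.5 CPM, a log2 change of 6.17 ± 0.26. Cyp26b1, a second retinoic acid hydroxylase, rose from a mean of 1.19 to 29.6 CPM, and Dhrs3, which reduces retinal back to retinol, from 6.34 to 39.6 CPM. The retinol-binding gene Rbp4 and the retinoic acid carrier Crabp2 rose too. The synthesis enzymes Aldh1a2 and Aldh1a3 fell, by 1.15 and 1.61 on the log2 scale. Of the 13 genes 6 lay below the parental change, among them Cyp26a1, Cyp26b1, Stra6, Dhrs3 and Crabp2, and 4 above it, Rdh11, Rbp4, Crabp1 and Rdh10. Crabp1, a second retinoic acid carrier, rose by 1.47 in cKO and had a change of -0.69 in parental cells. The median of the list was 2.08 in parental cells. Stra6, for example, reached 106 CPM in parental cells.

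Among 9 receptors and cofactors 4 were higher and 4 lower, with a median of -0.03, shares close to those of all genes. Rarb, the receptor gene that retinoic acid itself induces, went from 0.752, 0.941 and 0.753 CPM to 8.24, 8.87 and 8.62 CPM (log2 change 3.39 ± 0.27, adjusted p = 4.98e-18). Every day 2 library lay above every day 0 library, but Rarb rose less than in parental cells by -2.13 ± 0.45 (adjusted p = 5.76e-05). Nrip1, a ligand-dependent corepressor, rose by 1.34, while the corepressor gene Ncor1 fell by 0.77 and Rarg by 0.48. Rara fell from 45.3 to 38.9 CPM, with overlapping groups and a change of -0.23 that lost its call without scaling factors and without day 2 replicate 2.

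The promoters of the strongest enzyme and of the induced receptor hold the repeat that RAR and RXR dimers are known to bind, and they are shown because both genes rose and are known targets of these dimers. The sequences are the bases before the annotated start from RefSeq (GRCm38.p6), 5′ to 3′ on the gene's strand, with the direct repeat of half-sites separated by 5 bases in capitals. They lie at chr19:37697716-37697807 (plus strand) for Cyp26a1 and at chr14:16575477-16575589 (minus strand) for Rarb.
Cyp26a1: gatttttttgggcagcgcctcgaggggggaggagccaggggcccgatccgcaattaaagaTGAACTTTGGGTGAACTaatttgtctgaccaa
Rarb: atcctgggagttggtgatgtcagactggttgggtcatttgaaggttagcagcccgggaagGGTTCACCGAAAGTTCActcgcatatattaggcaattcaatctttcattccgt
The repeat begins 32 bases before the start in Cyp26a1, on the minus strand of the gene, and 53 bases before it in Rarb. Any pair of the half-sites AGGTCA (the consensus), AGTTCA (a variant), GGGTCA (another) and GGTTCA (the last) on either strand, with that spacer and in the 250 bases before a start, was found in 9 of the 12754 tested genes with a RefSeq promoter (0.0706%). The count was 5 of 2885 among genes called at least 2-fold higher (0.173%) and 2 of 2013 among genes at least 2-fold lower (0.0994%). The 5 include Cyp26a1 and Rarb, which were known targets beforehand, so the higher share is no independent result. The octamer ATGCAAAT on either strand was present in 207 of the 12754 genes (1.62%), in 52 of the 2885 higher ones (1.8%) and in 42 of the 2013 lower ones (2.09%). These are matches of letters in a short window and no more.

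Genes that retinoic acid induces in many cell types rose in 13 of 18 cases and fell in 4. Stra8, which starts meiosis in germ cells, went from 3.01, 2.98 and 4.77 CPM to 299, 267 and 297 CPM, an 80.3-fold rise of the mean. The Hox cofactor Meis1 went from 1.35, 1.57 and 1.07 CPM to 47.3, 51.2 and 50.5 CPM. Neither overlapped between days. The pioneer factor Foxa1 rose by 4.13. Against this direction, Gbx2, a homeobox gene of the naive network and of the anterior hindbrain, fell by 2.64, Cdx2 by 2.42 and Cdx1 by 1.01. Rarres1 did not pass the test (-1.51, from 0.318 to 0.107 CPM), but did with DESeq2 (-1.63), without cKO day 0 replicate 3 (-1.82) and without day 2 replicate 1 (-3.05). The list's median was 1.29 in cKO and 3.54 in parental cells, and 10 of its 18 genes lay below the parental change. Stra8 was the only one above it, with a log2 change larger by 2.20 ± 0.15. It started from 3.59 CPM in cKO against 28.5 CPM in parental cells at day 0, so the difference is one of fold and not of the level reached. By day 6 Stra8 was back at 5.73 CPM in cKO cells.

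All 15 Hox genes of paralogue groups 1 to 5, which pattern the hindbrain and neck, were higher at day 2 and each by at least 2-fold. Hoxb1, the earliest of the B cluster to answer retinoic acid, had 1 count in the 3 day 0 libraries together and stood at 86.9, 91.3 and 87.7 CPM at day 2, a ratio of 3730 with a 95% counting interval of 668 to 147000. Hoxb4 went from 1.28, 0.471 and 0.502 CPM to 59.6, 56.9 and 65.3 CPM. In all 15 genes every day 2 library was above every day 0 library. Over all genes, 13421 of the 14039 called had no overlap between the cKO days. Hoxd3 had no count at day 0 and was at least 3.03-fold higher at day 2, taking 3 counts per library as the floor. The overlapping transcript Hoxb3os had 2 counts at day 0 and 1294 at day 2, a ratio of 567 (157 to 4690), and its reads may include those of its neighbours, since the strand setting is not given in the sources used here. The median of the list was 4.75 in cKO and 6.58 in parental cells, or 4.55 and 6.17 with genes at 0 set at their bound. Of the 15 genes 8 lay below the parental change, and none lay above it. Hoxb1 reached 88.7 CPM in cKO and 346 CPM in parental cells at day 2, but with no count in the parental day 0 libraries its difference in fold cannot be estimated.

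Posterior Hox genes, of groups 6 to 13, also rose: of 24, 20 were tested, 16 were higher, 2 lower and 2 did not pass. Hoxb9 rose from a mean of 7.6 to 62.8 CPM, Hoxb8 from 0.791 to 19.3 CPM and Hoxb7 from 0.394 to 18.6 CPM. Hoxc12 and Hoxc13 went the other way, Hoxc12 from 2.48, 3.29 and 3.45 CPM to 0.19, 0.233 and 0.0669 CPM. Hoxc8 (0.12) and Hoxc9 (0.49) did not pass the test. Of the 20, 8, such as Hoxb6 and Hoxb8, lay below the parental change and none above it.

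Most pluripotency genes fell, and the naive list had the lowest median of all lists. Of 20 naive genes 19 fell, 16 of them at least 2-fold, and Lifr, a subunit of the LIF receptor, did not pass the test (-0.02, but 0.14 with an adjusted p of 0.048 without scaling factors). Klf4, a Krüppel-like factor of the naive network, went from 414, 425 and 415 CPM to 14.1, 13.7 and 14.9 CPM. Esrrb, an orphan nuclear receptor, went from 863, 872 and 827 CPM to 44, 38.1 and 42.7 CPM, and Prdm14, which represses differentiation genes in ESCs, from 69.9, 67.5 and 65.6 CPM to 1.08, 1.63 and 1.6 CPM. All 3 fell with no overlap, by 4.88, 4.36 and 5.55 on the log2 scale. The median was -2.69 in cKO and -3.74 in parental cells, and 16 of the 20 genes lay above the parental change, that is, they fell less. Tcl1, for instance, fell by 3.68 in cKO and by 6.56 in parental cells. Gbx2 and Stat3 were the exceptions below it.

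Of 17 general pluripotency genes 13 fell and 2 rose, with a median of -1.79 against -2.23 in parental cells. The differences from the parental change went both ways, with 9 of the 17 genes above it and 6 below it. Pou5f1, which encodes Oct4, went from 1400, 1410 and 1740 CPM to 458, 423 and 435 CPM, and Sox2, its partner, from 429, 441 and 456 CPM to 45.4, 45.1 and 48.2 CPM. The days did not overlap for either gene. Pou5f1 thus kept a higher level than in parental cells, where it ended at 93.2 CPM, and its change lay above theirs by 1.47 ± 0.09 (adjusted p = 1.3e-13). Fgf4, the FGF ligand that Oct4 and Sox2 drive together, showed the largest such gap: 360, 363 and 349 CPM became 48, 52.3 and 49.9 CPM, a change of -2.84 against -6.30 in parental cells. The nodal co-receptor Tdgf1 fell by 1.33 against 3.08. Foxd3 was nearly lost, from 56.8, 54.7 and 63.5 CPM to 0.38, 0.583 and 0.267 CPM. The RNA-binding gene Lin28a and Dnmt3l, a cofactor of de novo DNA methylation, rose by 1.24 and 1.38, while Utf1 (0.04) did not pass, but was called at 0.15 without cKO day 0 replicate 3 and at 0.20 without scaling factors. Dppa2, which opens chromatin at developmental genes, fell by 0.47 in cKO and rose by 1.41 in parental cells.

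The formative and primed genes, which mark the step after the naive state, were mixed, with 8 of 17 higher and 7 lower. Etv4 rose by 2.11 and Sox4 from 20.7 to 83.4 CPM. Otx2, a homeobox gene of the primed state, fell by 5.18, and Etv5, an ERK-dependent factor, fell from 502 to 105 CPM, and Lef1, Zic2 and Pim2 fell. Fgf5, the usual marker of primed cells, had means of 0.327 and 0.564 CPM and did not pass the test (0.75), and Grhl2 did not pass (-0.09).

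Genes of the primitive streak and early mesoderm showed a split. Of 28 listed 25 were tested: 12 rose, 7 fell and 6 did not pass, with a median of 0.74. Pdgfra, a receptor of mesoderm and primitive endoderm, went from 3.31, 3.06 and 2.64 CPM to 27.4, 31.8 and 27.3 CPM, and Hand1 from 0.301, 0.0784 and 0.314 CPM to 3.99, 4.02 and 3.88 CPM. Both were higher in every day 2 library, and neither difference from the parental change passed the test (-0.10 ± 0.25 and -0.24 ± 0.67). The streak genes T (-2.47), Mixl1 (-2.43), Gsc (-1.97) and Evx1 (-3.51) fell, all from day 0 means under 3 CPM. Meox1, a somite gene, did not pass the test in cKO: 0.226, 0 and 0.565 CPM at day 0 became 0.57, 0.525 and 0.334 CPM. In parental cells it reached a mean of 19.6 CPM, and the difference of -7.07 ± 1.05 was called (adjusted p = 1.8e-07). Without cKO day 0 replicate 3 the cKO change of Meox1 was 1.98 and passed the test (adjusted p = 0.0194). Wnt3a, Tbx20, Isl1, Tcf15 and Snai1 did not pass either, although Tbx20 was called at -0.41 without cKO day 2 replicate 2 and Snai1 at 0.35 without scaling factors. In all, 14 of the 25 genes lay below the parental change and 2, Foxc2 and Fgf8, above it. The difference of Fgf8 lost its call without scaling factors and in the DESeq2 test. It was also lost on leaving out cKO day 0 replicate 2 or 3, cKO day 2 replicate 1 or 3, parental day 0 replicate 1 or 3, or parental day 2 replicate 3 (adjusted p from 0.0546 to 0.121 over these settings).

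Endothelial and blood genes rose in 10 of 18 cases and fell in 7, and 14 of the 18 lay below the parental change. Kdr, the VEGF receptor that marks the first vascular progenitors, stood at 1.73, 1.73 and 1.07 CPM at day 0 and at 0.634, 0.933 and 0.602 CPM at day 2. It fell in cKO (-1.01 ± 0.30) and rose in parental cells (3.21), a difference of -4.22 ± 0.36 (adjusted p = 3.51e-13). Flt4, Tie1 and Lmo2 rose in cKO, Flt4 from a mean of 3.99 to 21.6 CPM, and Eng and Tek fell by 1.18 and 1.78. Cdh5 did not pass (1.25), but was called at 2.71 without cKO day 0 replicate 3 (adjusted p = 0.015). The summed level of the list was 254 to 259 CPM at day 0 and 218 to 226 CPM at day 2. Among 15 muscle genes 5 rose, 4 fell and 6 did not pass. Acta2 fell from a mean of 88.3 to 7.88 CPM and Des rose from 11.6 to 46.3 CPM. Of the list 6 genes were above the parental change, and 3 without cKO day 2 replicate 3 or without parental day 2 replicate 1.

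Extraembryonic endoderm genes had the highest list median after the anterior Hox genes, with 19 of 23 higher, 2 lower and a median of 2.51 (2.34 with genes at 0 set at their bound). Cubn, which with amnionless takes up proteins in the visceral endoderm, went from 0.602, 0.784 and 0.502 CPM to 238, 264 and 205 CPM. Gata6, the factor that specifies primitive endoderm, went from 0.451, 0.471 and 1 CPM to 28.5, 24.5 and 26.6 CPM, and Srgn, a proteoglycan core protein, from 0.978, 1.33 and 1.95 CPM to 44.2, 39.9 and 38.9 CPM. None of the 3 overlapped between days. The basement membrane genes Col4a1, Col4a2 and Lamb1 rose 2.79, 2.88 and 2.44 on the log2 scale, Col4a1 to 973, 968 and 889 CPM. The list rose in parental cells too, with 17 of 23 genes higher, 3 lower and a median of 2.03. Of the 23 genes 11 lay above the parental change, Gata6 by 1.37 ± 0.36 and Col4a1 by 1.65 ± 0.07, and 3 lay below it. The secreted markers of mature visceral endoderm stayed very low: Afp had 13 counts and Apoa1 20 counts over the 3 day 2 libraries. Ttr, with 3, did not pass the test, but did without cKO day 2 replicate 3 (adjusted p = 0.0486). Lamc1 did not pass either (-0.07), but was called at -0.18 without cKO day 0 replicate 3 (adjusted p = 0.000195) and at -0.14 with no filter on low counts. Fst, an activin inhibitor that the list also holds, fell from 26.8, 24.9 and 27.7 CPM to 1.39, 1.17 and 1.14 CPM. The summed level of the list in cKO went from between 3070 and 3140 CPM at day 0 to between 6420 and 7160 CPM at day 2. In parental cells it went from between 2420 and 2490 CPM to between 3240 and 3510 CPM. In bulk RNA, more cells of a type and more RNA per cell cannot be told apart.

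Epithelial genes rose in 11 of 16 cases and fell in 2. The keratin Krt18 went from 14.1, 14 and 19 CPM to 181, 179 and 172 CPM, and the claudin Cldn7 rose by 3.83 and the splicing regulator Esrp1 by 3.72. Cdh1, the cadherin of epithelia and ESCs, fell by 0.51. Mesenchymal genes went mostly down, 8 of 14 lower and 4 higher: Zeb1, a repressor of Cdh1, fell from a mean of 48.6 to 13.7 CPM, and Cdh2 fell by 1.32 where parental cells raised it by 1.36. Trophoblast genes were mixed, 9 of 17 higher and 6 lower, and the largest rises were those of Hand1, Krt18, Krt19 and Fgfr2. The regulators Cdx2 and Eomes fell, and Elf5 did not pass. Definitive endoderm genes were called higher and lower in 4 of 11 cases each. Foxa2, a pioneer factor of endoderm and floor plate, had 1 count at day 0 and 114 at day 2, a ratio of 100 (17.6 to 3980).

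Neural genes showed no common direction. Of 16 progenitor genes 9 rose and 5 fell. Dll1, a Notch ligand, went from 2.33, 1.88 and 2.26 CPM to 20.7, 19.6 and 20.7 CPM, a rise 2.31 ± 0.22 above the parental one. Pax6 and Pax3 rose by 3.44 and 3.38 from under 1 CPM. Olig2 fell from a mean of 30 to 2.39 CPM, and Sox1, the marker of neuroectoderm, went from 4.29, 3.69 and 3.83 CPM to 0.507, 0.991 and 0.869 CPM. Sox1 moved the opposite way in parental cells, from 0.894 to 5.27 CPM. Among 13 neuronal genes 4 rose and 6 fell: the RNA-binding genes Elavl3 and Elavl4 rose by 2.34 and 3.61, and the tubulin Tubb3 fell by 3.76. Of 11 neural crest genes 3 rose and 5 fell, with Sox10 up from 0.268 to 4 CPM and Ngfr down from 59.6 to 2.56 CPM.

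Ligands and receptors of nodal, TGF-beta and BMP signalling moved in both directions: 10 of 26 rose, 12 fell, and 2 rose and 8 fell by at least 2-fold. Nodal went from 155, 158 and 180 CPM to 81.5, 72.1 and 73.4 CPM, a fall of 1.12 ± 0.06 on the log2 scale against 0.25 in parental cells. The activin subunit genes Inhba and Inhbb fell by 4.45 and 2.56, and Gdf3, a nodal-like ligand, by 2.68. The receptor gene Bmpr2 rose by 1.13, and Acvr2b from a mean of 18.6 to 36.7 CPM. Of the Smad genes of this list, Smad2 (0.52), Smad3 (0.30), Smad4 (0.22) and Smad5 (0.34) rose, Smad1 fell (-0.63), and Smad9 did not pass (0.08). Smad1 fell from 16.4, 16.9 and 16.4 CPM to 10.8, 10.9 and 10.4 CPM in cKO and rose in parental cells, a difference of -1.36 ± 0.13. The targets and inhibitors were evenly split, 10 of 21 higher and 10 lower. Lefty1, a nodal inhibitor, rose from 19.6, 20 and 23.7 CPM to 100, 90.9 and 94.9 CPM, while Lefty2 fell from 195, 205 and 217 CPM to 71.9, 70.6 and 78.2 CPM. Because the 2 genes are close paralogues, some reads may be assigned to the wrong one. Id3, a BMP target, and Smad7, the inhibitory Smad, fell by 1.90 and 2.35, and Id1 rose by 2.40. Above the parental change lay 8 of the 21, but 4 without scaling factors and 5 without parental day 2 replicate 3, and 10 lay below it.

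In the FGF and ERK list 12 of 23 genes rose and 9 fell. The receptors Fgfr2, Fgfr3 and Fgfr4 rose by 2.72, 3.56 and 2.50, Fgfr3 from 1.58, 1.18 and 1.44 CPM to 17.5, 17.2 and 15 CPM. The immediate early gene Fos fell by 3.34, the feedback inhibitor Spry2 by 2.76 and Myc by 2.22. Egr1, an immediate early gene like Fos, stood at 3.83, 4.16 and 3.89 CPM and then at 0.824, 1.28 and 1 CPM, whereas it rose to 20.9 CPM in parental cells. Of the Ets factors that this list shares with the formative one, Etv4 rose and Etv5 fell. ERK activity itself was not measured. Spry1 did not pass (-0.03). In the Wnt list 8 of 19 rose and 7 fell. The Wnt targets Sp5 and Notum fell by 5.04 and 4.54 and Axin2 by 1.06, while Wnt8a rose by 2.09 and the secreted inhibitor Sfrp5 by 3.51. Lgr5, Znrf3, Wnt4 and Wnt3a did not pass, although Znrf3 was called at -0.20 without cKO day 0 replicate 3 (adjusted p = 0.0295) and Wnt4 at 0.60 without scaling factors.

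Most genes of cholesterol synthesis and glycolysis rose in cKO and lay above the parental change. Of 19 cholesterol synthesis and uptake genes 18 rose, with a median of 1.06 against 0.27 in parental cells, and Mvk did not pass (-0.02). Dhcr7, the last enzyme of the pathway, went from 43.2, 44.4 and 45.3 CPM to 279, 263 and 263 CPM. Insig1, a sterol-regulated brake on the pathway, went from 90.8, 99.4 and 92 CPM to 383, 361 and 351 CPM. Every day 2 library lay above every day 0 library for both genes. Insig1 did not pass in parental cells (0.10), a difference of 1.86 ± 0.07. Of the 19 genes 16 lay above the parental change, or 13 without scaling factors.

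Glycolysis and lactate genes rose in 15 of 22 cases, fell in 4, and 18 of the 22 lay above the parental change (14 without scaling factors). Gpi1, the enzyme after hexokinase, went from 854, 844 and 939 CPM to 2140, 2230 and 2180 CPM. Aldoc, an aldolase, went from 19.1, 16.7 and 18.8 CPM to 92.3, 85.2 and 92.2 CPM, and Slc16a3, which exports lactate, from 37, 38 and 45.2 CPM to 214, 219 and 228 CPM. For all 3 every day 2 library lay above every day 0 library. Aldoa, Pgk1, Tpi1 and Pfkl rose by 0.88 to 1.30. Pfkp, the platelet phosphofructokinase, rose slightly in cKO (361, 377 and 348 to 403, 442 and 444 CPM, a log2 change of 0.25) and fell from 869 to 127 CPM in parental cells. The glucose transporter Slc2a1 was the single member below the parental change, at 1.70 against 2.54. Gapdh (-0.04, called at 0.12 without scaling factors), Pkm (-0.06) and Pgam1 (-0.08, called at -0.13 with DESeq2 and -0.14 without the filter) did not pass in cKO, and Ldhb fell from 99.6 to 34.3 CPM.

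Threonine, glycine and one-carbon genes fell in 14 of 22 cases and rose in 8, while parental cells lowered 21 of the 22. Tdh, Shmt1 and Mat2a fell most, Mat2a, which makes S-adenosylmethionine, from a mean of 674 to 187 CPM. The mitochondrial folate enzyme Mthfd2 went from 62.6, 61.6 and 67.5 CPM to 189, 188 and 200 CPM and had fallen in parental cells from 125 to 70.8 CPM, a difference of 2.41 ± 0.08 (adjusted p = 5.25e-24). The serine synthesis enzymes Phgdh, Psat1 and Psph rose by 0.974, 0.501 and 1.097 in cKO. Phgdh went from 54.4, 57.1 and 65.3 CPM to 121, 104 and 123 CPM, and each of the 3 fell in parental cells. Carbonic anhydrase and bicarbonate transport genes rose in 10 of 17 cases and fell in 3. After Car4 the largest rises were Car9 (3.44) and Car12 (3.26), and the anion exchanger Slc4a2 went from 69, 65.7 and 67.5 CPM to 14.5, 13.8 and 13.5 CPM.

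**Figure D3:**
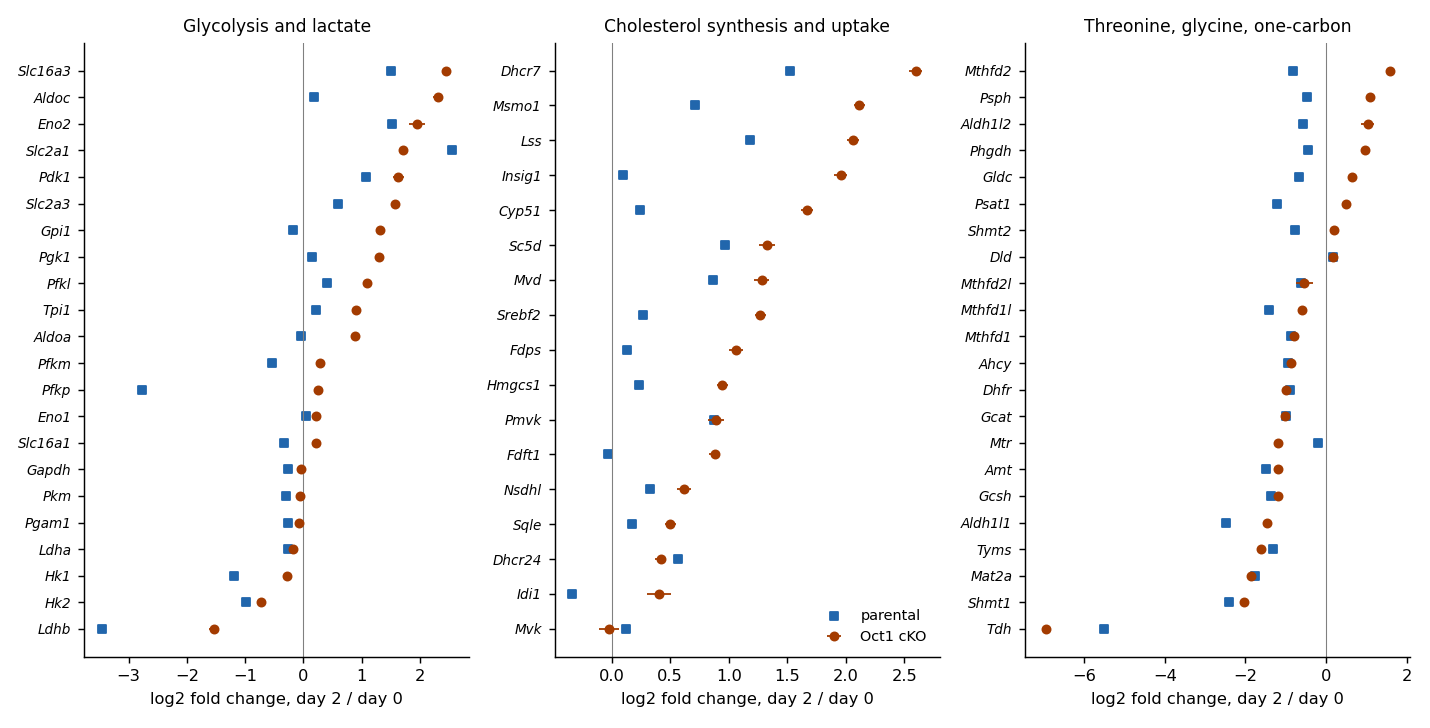
Log2 change from day 0 to day 2 of the plotted members of the glycolysis, cholesterol and threonine, glycine and one-carbon lists, in cKO (circles, bars are SE) and parental cells (squares). Insig1, Mthfd2 and Pfkp show wide gaps between genotypes, 1.86, 2.41 and 3.02, and Tdh is the single one of these 4 genes whose cKO value lies to the left of the parental one.

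Genes were ranked by gain or loss in CPM if called, with a log2 CPM that averaged at least 1 and no overlap between the cKO days. Clone-type names (Gm, Rik and similar), pseudogene symbols and mitochondrial genes were left out. The largest gains were those of Scd2, Slc2a3, Txnip, Peg10, Hsp90b1 and Aldoa. Scd2, a fatty acid desaturase, went from 869, 869 and 772 CPM to 4150, 4120 and 4050 CPM, and its difference from the parental change was -0.01 ± 0.07. Txnip, which restrains glucose uptake, went from 150, 150 and 142 CPM to 2180, 2010 and 1990 CPM, and the neuronal-type glucose transporter Slc2a3 from 1430, 1440 and 1300 CPM to 4110, 4180 and 4160 CPM. That every day 2 library was above every day 0 library for these 3 genes follows from the ranking rule. Hsp90b1, the Hsp90 of the endoplasmic reticulum, rose by 1.22 and was slightly lower in parental cells (-0.12). The largest losses were those of Hsp90ab1, Ncl, Actb, Hspa8, Hsp90aa1 and Trim28. Hsp90ab1, a cytosolic chaperone, fell from 8990, 9130 and 9530 CPM to 5700, 5280 and 5600 CPM, and Trim28, a corepressor that silences retroelements, from 2360, 2320 and 2600 CPM to 727, 671 and 721 CPM.

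The ranking by fold used the same rule, with a log2 CPM that averaged at least 1 and no overlap. Its 12 largest rises were Cyp26a1, Car4, Hoxb1, Hoxb3os, Hoxb5 and Cubn, and Timd2, Mmp9, Krt20, Col6a5, Foxq1 and Prss50. The metalloprotease Mmp9 went from 1.35, 0.863 and 0.565 CPM to 152, 150 and 146 CPM, and Krt20, a keratin of intestinal epithelium, from 0.526, 0.549 and 0.627 CPM to 58.8, 54.3 and 58.1 CPM. Both had fallen back to under 23 CPM at day 6. Col6a5 and Prss50 rose more than in parental cells, by 3.07 ± 0.37 and 1.86 ± 0.34. The 12 largest falls were those of Foxd3, Tdh, Prdm14, Nr0b1, Spic, Trpm1, Zfp819, Serpinb9b, Cdhr1, Aoah, Platr7 and Ppp1r14d. Spic, an Ets-family factor of ESCs and macrophages, went from 22.4, 21.6 and 24.4 CPM to 0.0634, 0 and 0.201 CPM. Serpinb9b reached 328 CPM and Cdhr1 8.19 CPM on average at day 6.

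Cell cycle genes moved in both directions, 17 of 27 lower and 7 higher. The G1 cyclin gene Ccnd1 went from 76.9, 80.3 and 80 CPM to 9.38, 9.33 and 11.4 CPM, and Mycn and Myc fell by 2.02 and 2.22. The replication factors Pcna and Mcm2, Mcm3, Mcm5 and Mcm7 fell, with log2 changes from -1.003 (Mcm2) to -1.44 (Pcna). Mki67 and the mitotic kinase gene Aurkb rose by 0.76 and 0.75, and Ccnb1, Aurka and Cdc20 did not pass. Cdc20 was called with DESeq2 (-0.16), without the filter, and without day 0 replicate 2 or day 2 replicate 1. Without scaling factors Ccnb1 (0.14) and Aurka (0.12) were called higher. Mki67 was lowest in the set-apart day 0 replicate 3 (234 CPM against 312 and 320). Among 18 genes of p53 and cell cycle inhibition 11 rose and 6 fell. The inhibitors Cdkn1c and Cdkn1b rose by 2.66 and 1.53, Cdkn1c from 3.53, 4.39 and 4.02 CPM to 25.3, 25.3 and 25 CPM, while Cdkn1a fell from a mean of 229 to 131 CPM.

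Of 13 DNA methylation genes 9 fell and 4 rose. The maintenance methyltransferase Dnmt1 fell from 407, 405 and 367 CPM to 173, 166 and 173 CPM, its partner Uhrf1 fell by 1.26 and Zfp57, which protects imprints, by 1.62. The de novo enzyme Dnmt3a rose by 1.27. Imprinted genes rose in 19 of 24 cases and fell in 4, with 14 below the parental change. H19, a non-coding RNA next to Igf2, went from 55.1, 59.6 and 66.3 CPM to 686, 670 and 644 CPM, and Peg10, a retroelement-derived gene, from 242, 245 and 207 CPM to 2100, 2020 and 2140 CPM. Both rose clearly and both lay below the parental change, Peg10 by -3.59 ± 0.08 from a higher day 0 level (231 against 51.4 CPM). The zinc finger gene Plagl1 fell from 179, 179 and 150 CPM to 12.8, 13.1 and 13.6 CPM. Germ cell genes rose in 15 of 18 cases: after Stra8, the meiotic cohesin gene Rec8 rose by 2.60 and the homeobox gene Rhox5 by 2.35.

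Genes of 2-cell-like cells, which turn up rarely among cultured ESCs and share transcripts with the embryo after its first division, rose in 17 of 18 cases, and Eif1a fell. Zfp352, a single-copy marker, went from 12, 11.5 and 12.1 CPM to 43.3, 40.8 and 47.2 CPM. Zscan4d went from 31.3, 31.5 and 33.4 CPM to 92.3, 92.7 and 106 CPM, but the Zscan4, Tcstv and Usp17 families are near-identical copies whose reads may be split among members. The median rise was 1.57 in cKO and 3.28 in parental cells, and the 17 rising genes lay below the parental change. Day 0 levels differed as well: Zscan4d stood at 6.29 CPM and Zfp352 at 0.9 CPM in parental day 0 cells. The summed level of the 18 genes was 576 to 590 CPM at day 0 and 745 to 846 CPM at day 2 in cKO.

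Fibroblast genes, which feeder cells would bring, were present at day 0 and fell in 16 of 18 cases. The collagen gene Col1a1 went from 158, 152 and 154 CPM to 37.9, 46.9 and 50 CPM, and Timp3 from 164, 160 and 137 CPM to 12.3, 12.2 and 14.4 CPM. Dcn and Lum, 2 other members of the list, were low, with means of 1.17 and 0.214 CPM at day 0. The fall of Lum was lost without cKO day 0 replicate 1 (adjusted p = 0.123), day 2 replicate 1 (0.0739) or day 2 replicate 3 (0.0696). The summed level went from between 739 and 773 CPM to between 204 and 242 CPM in cKO, and from 2000 to 2080 CPM to between 324 and 354 CPM in parental cells. Pdgfrb rose by 1.45, and Fap did not pass, but was called at 1.85 without cKO day 2 replicate 3 and at 1.70 without scaling factors. The part of feeder cells or of other cell types in any result was not tested.

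Directly opposite responses were found in 852 genes called higher in cKO and lower in parental cells and in 747 genes of the reverse kind. Nupr1, a stress-induced chromatin protein, went from 7.29, 5.57 and 7.09 CPM to 63.6, 64.6 and 66.4 CPM in cKO, while the parental means were 16.5 and 11.3 CPM. Dmrt1, a regulator of germ cell and gonad development, went from 5.56, 5.1 and 6.09 CPM to 30.2, 28.5 and 31.8 CPM and fell in parental cells from 25.5 to 15.5 CPM. Zap70, a tyrosine kinase of T cells, Acp5, an acid phosphatase, and Iqca were the others of the 5 largest rises of this kind. Clone-type names and genes of low level were again left out of the ranking. In the other direction Jrk went from 9.55, 8.31 and 9.04 CPM to 0.444, 0.642 and 0.535 CPM in cKO and rose from 4.95 to 8.94 CPM in parental cells. Inka2, Gbp4, Fam83h and Lrrc14 behaved alike, Fam83h from 12.6, 15.2 and 14.1 CPM to 2.22, 1.75 and 1.87 CPM. None of these 10 genes overlapped between the cKO days, as was usual for called genes. By day 6 Fam83h was above its day 0 level, at 46.8 CPM, and Nupr1 was back at 7.68 CPM.

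**Figure D4:**
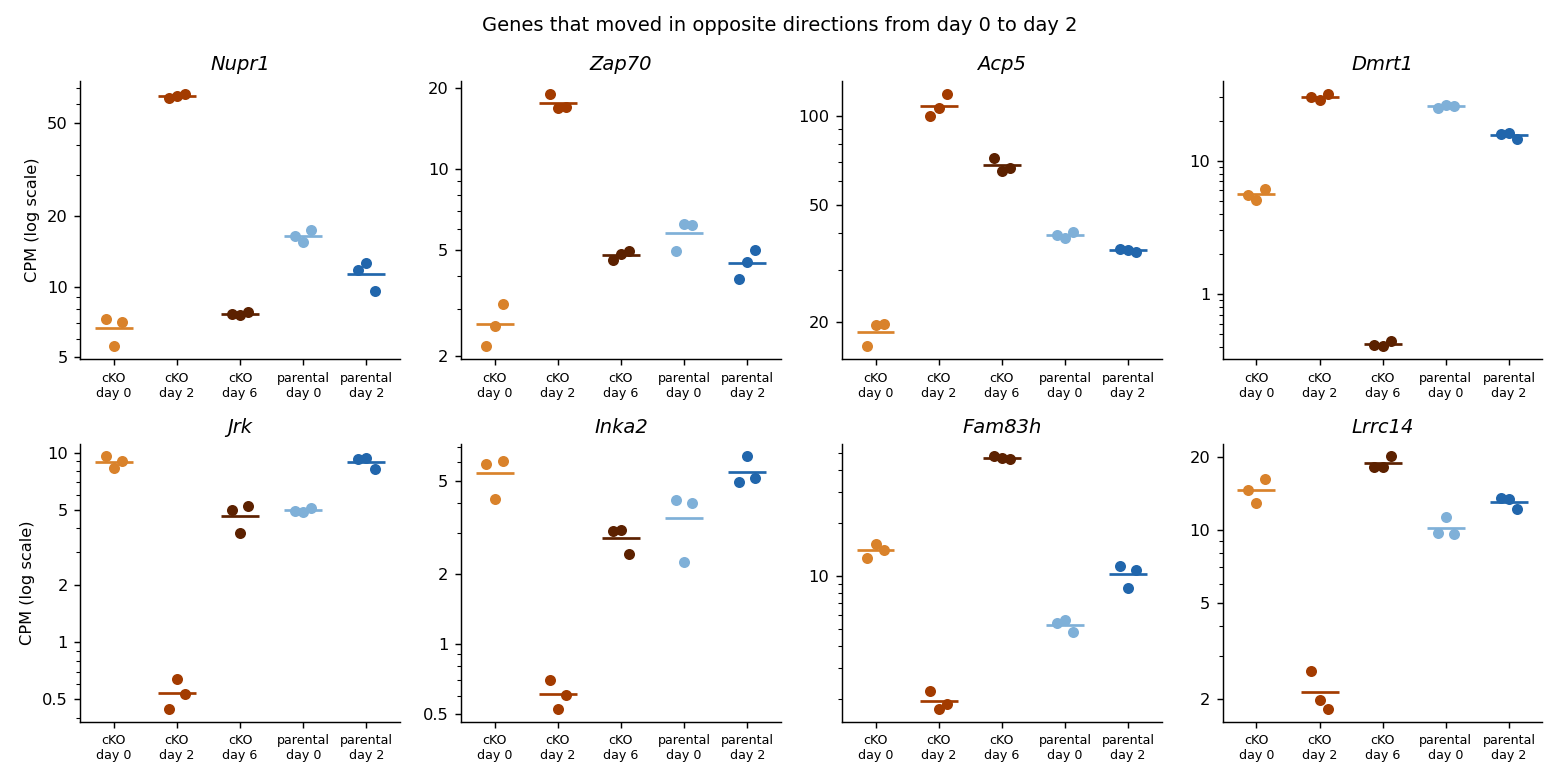
CPM (log scale, a separate axis for each gene) by library (points) with group means (bars) for 8 of the 10 genes with the largest changes in opposite directions among those ranked. In the upper row cKO rises from day 0 to day 2 and parental cells fall, Nupr1 from 6.65 to 64.9 CPM against 16.5 to 11.3 CPM, and in the lower row the directions are reversed.

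The called differences between the genotypes' changes were then ranked, again where log2 CPM averaged at least 1. The same kinds of names were left out, but overlap between days was allowed. Among the genes farthest above the parental change were Iqca (4.66 ± 0.39), Rph3al (4.19 ± 0.64), Nupr1, Ubap1l, Ndufa4l2, Prmt8, Fgf4, Nphs1 and H2-Q7 (3.38 ± 0.43). Ndufa4l2, a gene known for its response to low oxygen, went from 7.22, 5.88 and 9.35 CPM to 92.9, 85.1 and 102 CPM and stayed at 17.4 and 18.2 CPM in parental cells. H2-Q7 has close relatives in the major histocompatibility complex, so its level is uncertain. Below the parental change stood Irgm1 (-5.33 ± 0.19), Jrk, Sox1, Apob, Egr1, Foxd1, Gbp2, Rtn4rl1, Arg1 and Kdr. Irgm1, an interferon-induced GTPase, went from 12.3, 11.3 and 11.9 CPM to 1.71, 1.81 and 2.61 CPM in cKO and from a mean of 6.77 to 46.7 CPM in parental cells. Arg1, arginase, rose in both genotypes, and its difference of -4.22 lost its call without cKO day 0 replicate 2 (adjusted p = 0.0722). Rtn4rl1 changed little in cKO (-0.38 ± 0.13), a call that was lost without day 0 replicate 3, without day 2 replicate 3 and without scaling factors, and rose by 3.91 in parental cells.

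**Figure D5:**
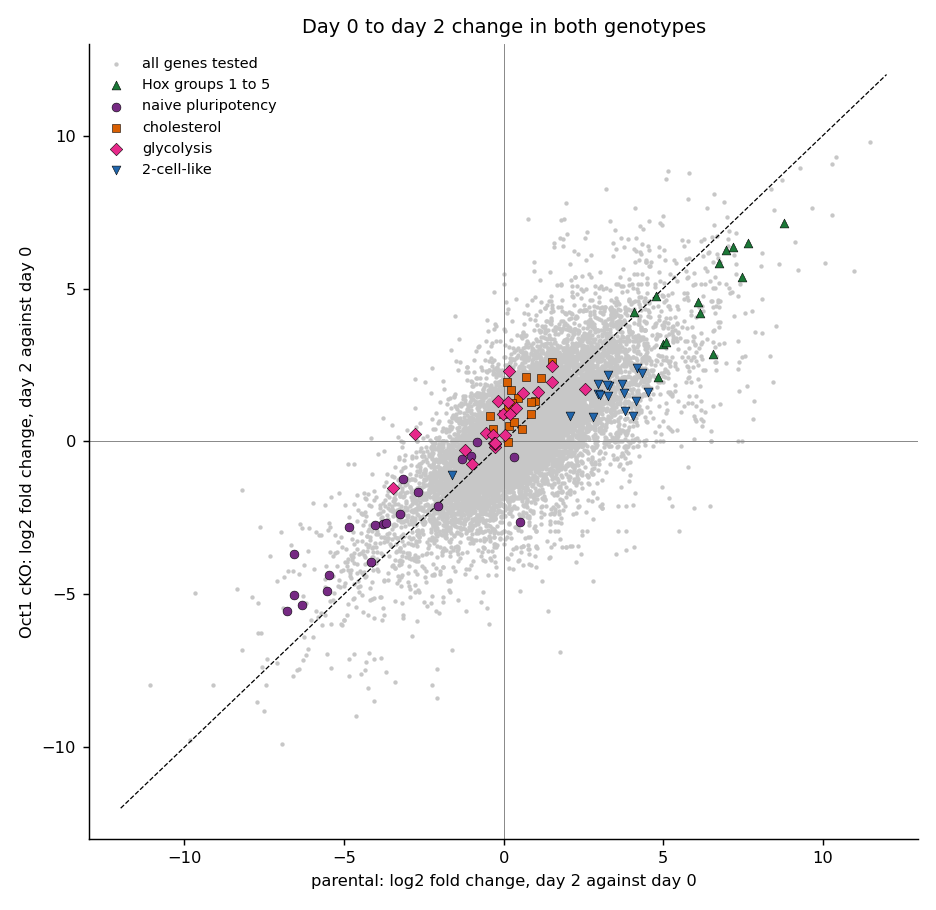
Log2 change from day 0 to day 2 of each tested gene in parental (horizontal) and cKO cells (vertical), with 5 lists in colour and the dashed line marking equal change. Hoxb1, at 11.48 in cKO, lies outside the plotted range because it had no count in parental day 0 cells; cholesterol and naive pluripotency genes lie mostly above the line, 16 of 19 and 16 of 20 by the test, and 17 of 18 genes of 2-cell-like cells lie below it.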

How the data were processed

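RNA was sequenced from 18 libraries, 3 per genotype and day. The authors deposited raw counts per gene, with no normalization, in 1 table of 21995 genes, all matched by identifier to GENCODE M21 (GRCm38). Per the submitters' processing notes, Novoalign, mm10, GRCm38 and DESeq2 1.10.0 were used, with no role given; for the counting program and the strand setting, nothing is stated (not given in the sources used here). Genes with too few counts were removed (filterByExpr, minimum count 10, minimum total 15), which left 18352. One edgeR 4.0.16 quasi-likelihood model in R 4.3.3, with TMM scaling, was fitted to all 6 groups, so that they share 1 estimate of the spread. It gave the cKO change, the parental change and their difference (the genotype by day interaction), each with Benjamini-Hochberg adjustment over all genes tested, and an adjusted p under 0.05 is a call. Every adjusted p in the text comes from it unless DESeq2 or another of the alternatives listed below is named. An SE is the Wald standard error of the log2 change. The same code was run on simulated counts in which few genes changed, so that run cannot check the scaling where most genes moved.

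The members and gene lists were chosen with earlier results of these data known. Genes were named by rule: Pou2f1, the 4 markers, the 12 largest rises and falls, the 6 largest CPM gains and losses, the 10 largest differences between genotypes in each direction, the 5 largest opposite changes in each direction, the 8 or fewer best-supported members per list by adjusted p, and uncalled members. Ranked genes were called, averaged a log2 CPM of at least 1 and had no clone-type, pseudogene or mitochondrial name. The cKO rises, falls, gains and losses also needed days that did not overlap. Other list members named were chosen after their values were seen. Counts and medians cover whole lists, but some genes the rule names are not reported here. For genes with no count in a group the fold is a bound against 3 counts per library, and for genes with 1 to 3 counts the ratio has an exact 95% interval for counting error only. Alternatives were DESeq2 1.42.0, its size factors, no scaling, no filter, only the libraries compared, a fold of at least 2, and each library left out.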

Additional observations from a re-analysis of the deposited data

Results flagged for a closer look

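Each gene below changed differently in the 2 genotypes, by the edgeR test of the genotype by day interaction, and the value given is the cKO minus the parental log2 change from day 0 to day 2. Such a difference was called in 10463 of 18352 genes, so each value describes a gene ranked or chosen for the text and is not rare in itself. Among the markers it was -1.24 for Cyp26a1, -1.43 for Tdh and 0.21 for Nanog. The Cyp26a1 and Nanog values lost their calls when single libraries were left out.

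Above the parental change were Iqca at 4.66, Rph3al at 4.19, Nupr1 at 3.82 and Ubap1l at 3.66. Others were Ndufa4l2 at 3.56, Prmt8 at 3.52, Fgf4 at 3.47, Nphs1 at 3.46 and H2-Q7 at 3.38. Dmrt1 at 3.14, Zap70 at 3.11 and Acp5 at 2.72 rose in cKO and fell in parental cells. Fgf4, Nphs1 and Prmt8 fell in both genotypes, and less in cKO.

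Below the parental change were Irgm1 at -5.33, Jrk at -4.88, Sox1 at -4.87, Apob at -4.73 and Egr1 at -4.56. Foxd1 at -4.46, Gbp2 at -4.29, Rtn4rl1 at -4.29, Arg1 at -4.22 and Kdr at -4.22 followed. Gbp4 at -3.90, Inka2 at -3.81, Fam83h at -3.80 and Lrrc14 at -3.14 fell in cKO and rose in parental cells. Gbp2 and Arg1 rose in both genotypes, and less in cKO.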

How the results depend on the processing

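The count of called cKO genes was 13738 to 13901 with 1 library left out and 12646 to 14931 under the other alternatives that kept the threshold. The lower end came from fitting only the libraries compared, where 15676 genes were tested. The called differences between genotypes numbered 9974 to 10548 with 1 library left out. Asking for a fold of at least 2 left 7295 cKO genes (4394 higher, 2901 lower), 7308 parental genes (4872 and 2436) and 4208 differences (1712 above, 2496 below). Without scaling factors the parental genes split into 10130 higher and 4589 lower (68.8% higher in place of 53.4%) and the differences into 4094 above and 6317 below. The median difference of all genes then moved from 0.01 to -0.16.

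Signs turned without scaling factors for the cKO changes of Aurka (0.122), Ccnb1 (0.145), Gapdh (0.121) and Lifr (0.144), none of them called with TMM scaling, and for the differences of Ncl (-0.031) and Mcm5 (-0.138). The cause was not tested. With DESeq2, 369 cKO changes of named genes stayed on their side of the threshold and 3 passed it anew. No paired analysis was possible because the replicate numbers follow accession order and the labels give no pairing.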

Other observations

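The gene lists in these paragraphs were chosen after values of these data were seen, so their counts are descriptions. Chaperones of the endoplasmic reticulum were higher at day 2 in cKO in 16 of 18 cases and lower in 1, with a median log2 change of 0.84 against -0.11 in parental cells, and 17 of the 18 lay above the parental change. Hspa5, the main Hsp70 of that compartment, went from 894, 876 and 928 CPM to 2460, 2360 and 2200 CPM, while the parental means were 712 and 667 CPM. Herpud1, a degradation factor of the same compartment, went from 11.6, 10.9 and 12.5 CPM to 96.5, 83.7 and 84.2 CPM. Neither gene overlapped between the cKO days. Genes of the integrated stress response rose in 14 of 18 cases and fell in 3, with 15 above the parental change. Ddit3, which encodes CHOP, went from 6.02, 5.73 and 8.09 CPM to 141, 137 and 139 CPM, a difference from the parental change of 2.86 ± 0.14. Asns, the asparagine synthetase gene, fell in cKO from 866, 846 and 905 CPM to 409, 399 and 399 CPM. Cytosolic chaperones did not share the direction of those of the endoplasmic reticulum: 18 of 19 fell, and Hsph1 fell by 2.24 in cKO and 2.19 in parental cells.

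Genes that respond to low oxygen rose in 16 of 19 cases and fell in 2, with a median of 1.62 against 0.59 in parental cells and 14 above the parental change. Vegfa, the vascular growth factor, went from 27.4, 25.1 and 26 CPM to 162, 172 and 171 CPM, and P4ha1, a collagen prolyl hydroxylase, from 47.2, 48.9 and 50.1 CPM to 518, 521 and 508 CPM. For both genes every cKO day 2 library lay above every day 0 library, and parental Vegfa means were 65.1 and 77.7 CPM. The labels give no oxygen or density of culture. Interferon-response genes rose in 15 of 22 cases and fell in 5, and 18 of the 22 lay below the parental change. The summed level of the list rose from between 163 and 187 CPM to between 721 and 754 CPM in cKO. In parental cells it rose from between 207 and 215 CPM to between 1460 and 1510 CPM. Against this direction, Ifit1 had 36 counts at day 0 and none at day 2 in cKO. Isg15, a ubiquitin-like modifier, went from 1.43, 2.2 and 1.82 CPM to 0.824, 0.292 and 0.602 CPM in cKO, whereas parental Isg15 rose from 1.05 to 7.28 CPM.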
